A study of Mus musculus with 8 samples.

Results

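The comparison set the 5-hydroxymethylcytosine (5hmC) map of adult mouse brain beside that of adult liver. Each tissue was represented by 1 library of genomic DNA from C57BL/6 mice aged 8 weeks, with no treatment or allele named in the labels. The number of animals behind each library, their sex and the brain regions taken are not given in the sources used here. 5hmC was mapped by GLIB-Seq, in which 5hmC is glucosylated, oxidised and biotinylated so that fragments carrying it can be pulled down and sequenced, and the deposited lists hold the regions (peaks) in which reads were enriched. The 33000 nuclear peaks with the highest scores were kept from each tissue, which gave 66000 of the 948520 peaks in the 6 lists of the series. The retained peaks were described by the percent of each gene span, or of each promoter window (TSS ± 1 kb), that they covered, over the 22367 protein-coding genes of the GENCODE annotation on mm9. With 1 library on each side there was no spread between replicates and no test, so every difference is between these libraries, and tissue and library cannot be told apart.

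5hmC is made from 5-methylcytosine (5mC) by the TET enzymes, almost always at CpG dinucleotides, and is lost by dilution at replication or by excision of its further oxidation products. It accumulates in cells that seldom divide and is abundant in brain, where neurons carry much of it along the bodies of genes. Whole brain mixes neurons with oligodendrocytes, astrocytes, microglia and vessel cells, whereas most of the DNA of liver comes from hepatocytes, which make plasma proteins and bile acids and process nutrients and drugs.

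The liver peaks lay densely over the genes of hepatocyte work. Of 208 genes in 7 lists of liver functions, 131 (63.0%) were covered over a larger share of their span in liver and 7 in brain, by at least 5 percentage points, whereas over all protein-coding genes 21.5% were covered more in liver and 10.9% in brain. The mean covered share of the liver lists was 23.9% in liver and 4.04% in brain, against 9.50% and 5.76% over all genes. Genes of neurons and glia had mean covers of 4.38% in brain and 3.42% in liver over 194 genes, both below those of all genes. Their median span was 97.5 kb, against 15.4 kb for all genes. Peaks touched 48.5% of them in brain, against 32.8% of all genes, and 19.6% in liver, against 34.4%. Within them, the genes of receptors, ion channels and synaptic adhesion had few peaks in liver. Genes used by every cell, such as those of ribosomes and mitochondria, were also covered more in liver.

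The sequences of some of these peaks are shown because they are the DNA in which the enrichment was called at the genes with the largest differences. Each is the middle 200 bp of the highest-scoring retained peak within the gene that met no annotated UTR, on the plus strand of mm9, with CpG dinucleotides, the sites at which 5hmC can form, in capitals. The first 3 belong to genes covered in brain and the last 3 to genes covered in liver. Tnfaip2, the liver gene with the largest difference, had no peak clear of a UTR.

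C130050O18Rik (brain, intron, chr5:139884763-139884962): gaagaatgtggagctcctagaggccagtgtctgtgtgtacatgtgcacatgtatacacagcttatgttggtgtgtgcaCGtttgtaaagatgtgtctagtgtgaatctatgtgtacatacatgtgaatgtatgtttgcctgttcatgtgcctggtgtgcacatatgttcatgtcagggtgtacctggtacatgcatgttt
BC100451 (brain, intron, chr11:118201010-118201209): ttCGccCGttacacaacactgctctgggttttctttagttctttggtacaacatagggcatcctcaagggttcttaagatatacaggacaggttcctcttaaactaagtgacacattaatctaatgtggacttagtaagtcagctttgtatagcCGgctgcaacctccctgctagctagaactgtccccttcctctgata
Klf15 (brain, intron, chr6:90421477-90421676): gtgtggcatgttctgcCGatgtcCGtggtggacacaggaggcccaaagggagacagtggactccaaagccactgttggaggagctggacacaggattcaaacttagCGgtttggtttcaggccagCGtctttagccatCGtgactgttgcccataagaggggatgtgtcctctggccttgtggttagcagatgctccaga
Slc11a1 (liver, overlapping an annotated exon, chr1:74428154-74428353): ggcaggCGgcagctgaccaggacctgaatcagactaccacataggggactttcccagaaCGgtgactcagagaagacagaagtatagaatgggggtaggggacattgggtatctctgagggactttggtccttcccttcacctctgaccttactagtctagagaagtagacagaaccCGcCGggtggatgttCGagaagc
Cpn1 (liver, intron, chr19:44054038-44054237): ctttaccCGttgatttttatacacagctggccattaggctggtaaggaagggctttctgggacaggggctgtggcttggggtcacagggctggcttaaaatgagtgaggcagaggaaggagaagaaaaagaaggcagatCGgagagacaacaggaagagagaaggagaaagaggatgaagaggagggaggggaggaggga
Atp1b1 (liver, intron, chr1:166376185-166376384): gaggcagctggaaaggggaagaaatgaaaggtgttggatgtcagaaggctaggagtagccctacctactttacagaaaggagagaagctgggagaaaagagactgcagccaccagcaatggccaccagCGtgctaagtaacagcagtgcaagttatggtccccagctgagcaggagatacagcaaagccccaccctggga

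The windows held between 1 and 5 CpGs each and were 43.5% to 55% G or C. None was dense in CpG. This was also the rule over all retained peaks, whose middle 300 bp had a median of 5 CpGs in brain and of 5 in liver, against 2 in windows of the same length taken every 100 kb of the genome. The median GC content was 49.0% in brain peaks, 48.3% in liver peaks and 41.3% in the genome windows. The peaks were thus richer in CpG than the genome at large, and 8.97% of brain and 7.74% of liver peaks held 10 or more CpGs in that window. Few peaks lacked a CpG there, namely 0.548% in brain and 0.952% in liver, against 19% of genome windows.

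The brain list held 157511 nuclear peaks and the liver list 130408, and equal numbers were kept because the lists were not cut at the same score. The score is the value the peak caller assigns to each peak, taken here as −10 times the log10 of its p-value. The lowest retained score was 80.22 in brain and 274 in liver, and the first peaks left out had the same scores as the last ones kept. Liver scores were therefore higher throughout, with medians of 427 against 110 in brain. The median width of a retained peak was 1828 bp in brain against 1963 bp in liver. In brain 334 peaks were at least 5 kb wide, and in liver 1165. They covered 66.3 Mb and 75.7 Mb, or 2.50% and 2.85% of the genome. Depth, which is unknown for peak lists, and 5hmC content can both move scores and widths, and they cannot be told apart here.

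Most peaks of each tissue were not shared with the other. At least 1 bp of a liver peak met 35.5% of brain peaks (exact 95% interval 35.0 to 36.0%, which covers counting error only), and 34.7% of liver peaks met a brain peak (34.2 to 35.2%). Of the bp covered in brain, 31.7% were also covered in liver, and of the bp covered in liver, 27.8% were also covered in brain. Retained peaks of embryonic stem cells (ESCs) met 31.9% of brain and 30.3% of liver peaks. The ESC peaks covered 2.34% of the genome, against 2.85% for liver and 2.50% for brain peaks. The overlaps were not adjusted for this, so they do not rank the tissues by likeness. The peaks shared by both tissues were wider than the others, with medians of 1965 against 1760 bp in brain and of 2284 against 1844 bp in liver. Shared peaks also recurred more in ESCs, where 45.8% of the brain peaks shared with liver and 24.3% of those found in brain alone met a peak. Since 1 bp sufficed, a wider peak was more likely to meet a peak of any other list. Neither contrast was adjusted for width.

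Peaks of both tissues lay mainly in genes. By their midpoints, 66.3% of brain and 66.2% of liver peaks were in introns, which make up 34.0% of the genome. Exons held 11.6% of brain and 12.6% of liver peaks, on 2.54% of the genome, so exons were the segment with the highest density in each tissue. Intergenic DNA held 20.9% of brain and 19.3% of liver peaks on 61.8% of the genome. The tissues differed in the promoter window, which held 1.18% of brain (1.07 to 1.30%) and 1.90% of liver peaks (1.76 to 2.06%) on 1.59% of the genome. Peaks found in 1 tissue were more often intergenic than shared peaks were, at 25.7% against 12.2% in brain and 22.9% against 12.5% in liver.

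Genes with a difference of at least 5 percentage points of the span were counted as covered more in 1 tissue. By this rule 2435 genes were covered more in brain (10.9% of all) and 4803 in liver (21.5% of all), and these shares are the background for every such count. Peaks touched 4864 genes in both tissues, 2470 in brain alone, 2841 in liver alone and 12192 in neither, so that 32.8% of all genes were touched in brain and 34.4% in liver. The mean covered share of a span was 5.76% in brain and 9.50% in liver, and the median was 0 in both. Liver also had more genes that were mostly covered: 1477 genes were covered over at least 50% of the span in liver, 446 in brain and 258 in both. In bp, gene spans held 53.2 Mb of brain and 61.8 Mb of liver peaks, a brain to liver ratio of 0.861. This ratio turned to 1.09 when every nuclear peak of each list was used, so the greater share of genic bp in liver depended on how many peaks were kept, whereas more genes were covered more in liver under every choice of peaks tried.

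Promoters carried little of the signal in either tissue. A promoter window was covered more when the difference reached 25 percentage points, which held for 418 genes in brain (1.87% of all) and 1066 in liver (4.77% of all). Covered promoter bp had a brain to liver ratio of 0.520, with 2.0% of promoter sequence covered in brain and 3.85% in liver. Any bp of the window was covered at 1216 genes in brain and 2377 in liver, and the whole window at 35 and 98. Span and promoter were both covered more in brain at 233 genes and both more in liver at 726, whereas 89 genes had more of the span in brain and more of the promoter in liver, and 53 the reverse.

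**Figure D1:**
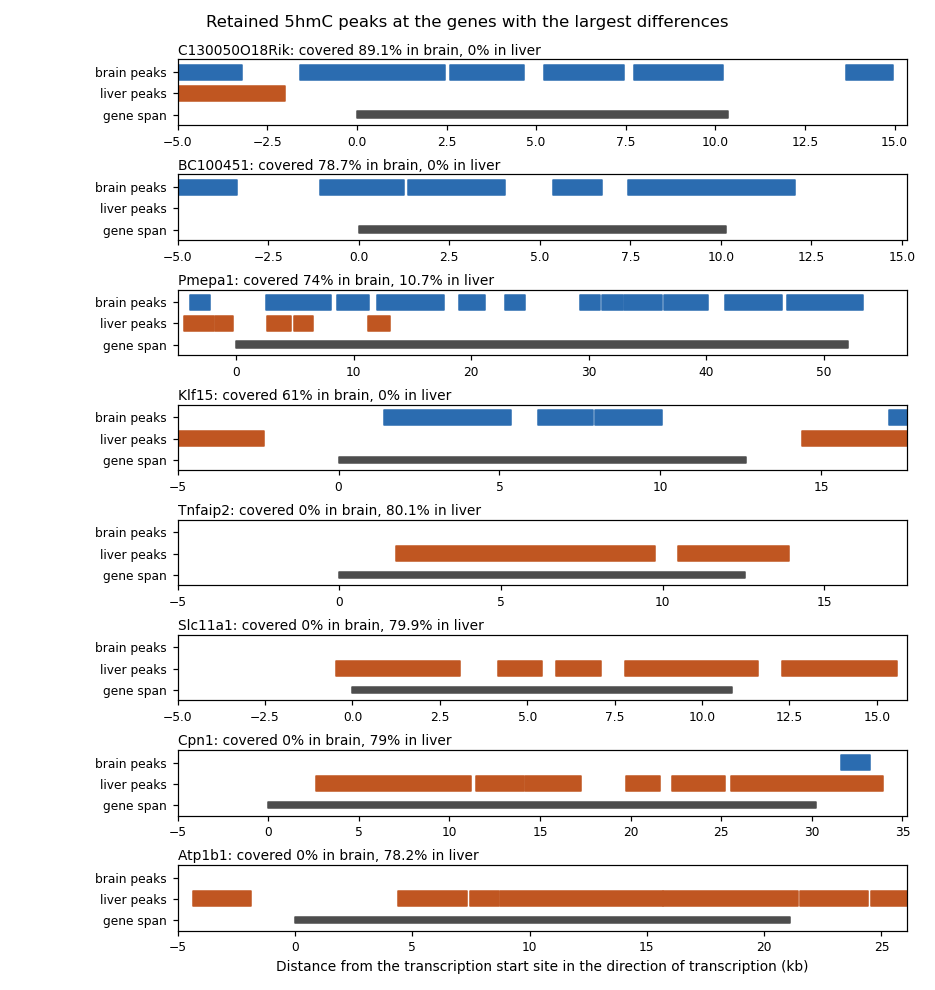
Retained peaks of brain (blue) and liver (orange) at the 4 genes with the largest difference in each direction, by distance in kb from the transcription start site along the direction of transcription, with the gene span in grey. The upper 4 genes were covered over 61.0 to 89.1% of their span in brain, and the lower 4 over 78.2 to 80.1% in liver with no brain peak within the span.

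Among spans of at least 10 kb, the 12 genes with the largest difference towards brain were covered over 56.4 to 89.1% in brain and 0 to 24.7% in liver. C130050O18Rik (chr5:139881234-139891577) was covered over 89.1% in brain by 4 peaks and BC100451 (chr11:118193674-118203814) over 78.7% by 4, and neither had a liver peak in its span. Each overlaps another protein-coding gene, so the cover cannot be ascribed to them alone. Pmepa1 (chr2:173049959-173102034), a membrane protein that restrains TGF-beta signalling, was covered over 74.0% in brain by 11 peaks and over 10.7% in liver by 3. Klf15 (chr6:90412570-90425232), a zinc finger transcription factor, was covered over 61.0% in brain and had no liver peak in its span, although liver peaks stood within 5 kb on both sides of it. In the map, no peak lies over the start site itself of Klf15 or Pmepa1, although 36.7% of the promoter window of Pmepa1 was covered in liver, whereas a brain peak spans the start of C130050O18Rik and of BC100451.

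The others of these 12 genes had varied roles. They included Jag2, a ligand of Notch receptors, at 58.4% in brain and 0% in liver, and Kif26a, an atypical kinesin, at 59.8% and 0%. Cdc42ep3, an effector of the small GTPase Cdc42, stood at 58.9% and 0%. Fhdc1, a formin family protein, stood at 61.7% and 3.60%. All 12 were also touched by an ESC peak and 11 by a peak of embryonic fibroblasts (MEFs), with median covers of 38.6% and 25.9%. Of all genes covered more in brain, 74.2% had an ESC peak and 56.1% a MEF peak, and of all genes 38.7% and 24.8%. In liver the full list, with its weaker peaks, left 4 of them at 0, namely BC100451, Cdc42ep3, Jag2 and Ntn5, but covered 2900010M23Rik over 74.4%.

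The 12 genes with the largest difference towards liver were covered over 70.5 to 80.1% in liver and 0 to 7.19% in brain. Tnfaip2 (chr12:112680680-112693229), a gene induced by tumour necrosis factor, was covered over 80.1% in liver by 2 wide peaks. Slc11a1 (chr1:74421777-74432636), a metal transporter of phagosomes, was covered over 79.9% by 4 peaks that reached its promoter, of which 73.8% was covered. Cpn1 (chr19:44030797-44061046), the catalytic subunit of the plasma enzyme carboxypeptidase N, was covered over 79.0% by 6 peaks, and Atp1b1 (chr1:166367398-166388486), a subunit of the sodium pump, over 78.2%. None of the 4 had a retained brain peak in its span.

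Several of the 12 make proteins that hepatocytes secrete. C3, the central component of complement, was covered over 77.8% in liver by 6 peaks, and Itih4, a plasma protein of the inter-alpha-inhibitor family, over 73.1% by 3, and both stood at 0% in brain. Lipg, a lipase of vessel walls, was covered over 71.5% by 9 peaks, and Fads6, of the fatty acid desaturase family, over 78.9% in liver and 7.19% in brain. The absence in brain depended on the number of peaks kept, since with the full brain list C3 was covered over 9.37%, Itih4 over 4.43% and Slc11a1 over 18.2%, and Pea15a alone of the 12 stayed at 0. MEF peaks touched 5 of these 12 genes and ESC peaks all 12, beside 36.9% and 66.4% of all genes covered more in liver.

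The largest possible difference, a promoter covered wholly in 1 tissue and not at all in the other, was met by 15 promoters in brain and 51 in liver. Ties were broken by the difference over the span and then by symbol. In brain the 6 taken were those of C130050O18Rik, BC100451, Tagap, Casq1, Angptl7 and Arsi, of which Casq1 encodes the calcium-binding protein calsequestrin and Angptl7 a secreted angiopoietin-like protein. In liver the 6 taken were those of 5330417H12Rik, B3galt4, C630050I24Rik, Cend1, Chad and Gm10401. B3galt4 is a galactosyltransferase of ganglioside synthesis and Cend1 a protein of the neuronal lineage, so a promoter wholly covered in liver was not always that of a liver gene. The absence in brain is that of retained peaks. The full brain list covered the spans of B3galt4, Cend1 and Gm10401 over 67.4%, 64.4% and 45.1%. It covered that of Chad over 7.40%, and those of 5330417H12Rik and C630050I24Rik stayed at 0. The tie rule favoured short liver genes whose span was wholly covered, so neither their length nor their span cover is a finding.

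**Figure D2:**
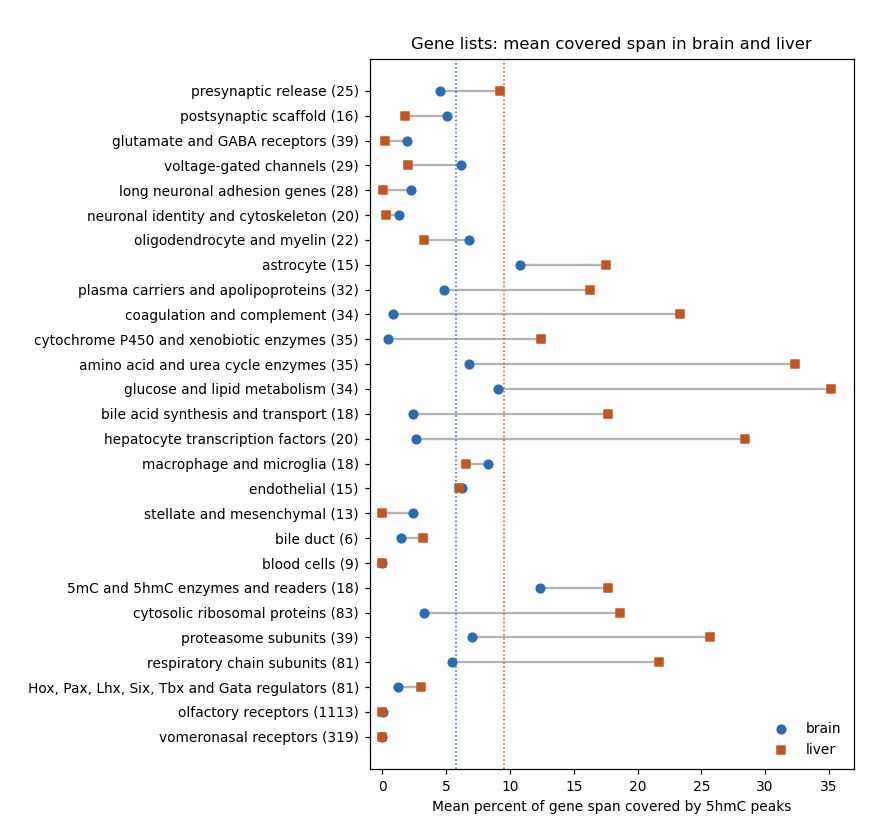
Mean percent of the gene span covered in brain (blue circles) and liver (orange squares) for each gene list, with the number of genes in brackets, and dotted lines at the means over all protein-coding genes (5.76% and 9.50%). The 7 liver lists lie at 12.4 to 35.2% in liver, all right of the dotted line, as do the 3 lists of genes used by all cells and the astrocyte and 5mC and 5hmC lists, and most lists of neuronal genes lie near the left edge.

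Glucose and lipid metabolism was the liver list with the highest cover, with a mean of 35.2% in liver and 9.09% in brain. Of its 34 genes, 28 were covered more in liver and 2 in brain. Scd1, which desaturates fatty acids, was covered over 68.1% in liver and 0% in brain. The sterol transporters Abcg5 and Abcg8, which lie head to head, were covered over 53.6% and 57.2% in liver and 0% in brain. G6pc, the last enzyme of glucose production, and Pklr, the liver pyruvate kinase, were covered over 46.2% and 55.6% in liver and had no brain peak.

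Amino acid and urea cycle enzymes were nearly as marked, at 32.3% in liver and 6.79% in brain, with 28 of 35 covered more in liver and 2 in brain. Ass1 and Asl, consecutive enzymes of the urea cycle, were covered over 65.2% and 56.2% in liver and 0% in brain. Ass1 is 50.5 kb long and held 10 liver peaks. Agxt, which detoxifies glyoxylate, was covered over 62.3% in liver and 0% in brain. Gnmt, the glycine methyltransferase that sets the level of S-adenosylmethionine, went the other way, with 59.2% in brain and 0% in liver. Gnmt is only 3.50 kb long and its promoter was covered over 20.9% in liver.

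Coagulation and complement genes had no member covered more in brain and 23 of 34 covered more in liver, with means of 23.3% and 0.836%. Besides C3, the highest were Serpinf2, the plasmin inhibitor, at 66.2%, and the clotting factors F12 and F7 at 71% and 57.4%. F12 alone of these had a brain peak, which covered 13.6%. Of the long genes, Hc, complement component C5, held 14 liver peaks over 78.1 kb and none in brain.

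Plasma carriers and apolipoproteins were divided. Of 32 genes, 13 were covered more in liver and 3 in brain, and 15 were not covered in either. Apoa4 was covered over 94.9% in liver, Hpx, which binds haem, over 65.7%, and Ambp over 61.1%, each with 0% in brain. Apoe and Apoa1 showed the reverse, at 60.1% and 54.8% in brain and 0% in liver. Apoe, the main lipid carrier made by astrocytes as well as by hepatocytes, had no liver peak in its span even in the full list. Alb, the gene of albumin and the most transcribed gene of hepatocytes, had no peak in its span in either full list. Its span is 39.0% GC, within the lowest of 5 equal classes of genes by GC, where mean cover was 0.802% in brain and 1.25% in liver. The 39 genes of the liver lists in that class had a mean of 5.17% in liver, and 13 were covered more in liver. Why Alb had no peak was not tested.

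Drug metabolism showed the same direction. Of 35 cytochrome P450 and xenobiotic enzymes, 14 were covered more in liver (40%) and none in brain. Peaks touched 19 of them in neither tissue, as they did 54.5% of all genes. Cyp2c44 was covered over 51.5%, Cyp4f14 over 47.0% and the flavin monooxygenase Fmo5 over 46.8% in liver, and all were at 0% in brain. Por, the reductase that supplies electrons to the P450 enzymes, was covered in both, over 48.9% in liver and 14.5% in brain. Several of these families lie in clusters of near-identical copies, where reads that map to more than 1 place were discarded, so a gene without a peak there was not shown to lack 5hmC.

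Bile acid genes were covered more in liver at 10 of 18 and in brain at none, with means of 17.7% and 2.38%. Abcc2, the canalicular exporter of conjugates, was covered over 53.1% in liver and 3.24% in brain. Abcc6, of the same transporter family, stood at 47.7% and 0%, and the sterol hydroxylase Cyp27a1 at 32% and 0%. The bile salt pump Abcb11 held 12 liver peaks over 104 kb, a cover of 22.5%, and no brain peak.

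The transcription factors that hold hepatocyte identity had no gene covered in brain without also being covered in liver. Of 20 genes, 15 were covered more in liver and none in brain, and those 15 were all the genes of the list that had a liver peak. Hnf4a was covered over 51.5% in liver and 4.92% in brain, with 40.6% of its promoter covered in liver. The nuclear receptors Nr1i3 and Nr1h4, which sense drugs and bile acids, were covered over 68.7% and 40.9% in liver and over 0% and 2.09% in brain. Nr5a2 held 18 liver peaks over 117 kb and 2 brain peaks. Rxra, the partner of many nuclear receptors, was covered in both tissues, over 41.9% in liver and 33.7% in brain. The count of 15 was the same under each of the 4 other choices of peaks tried.

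**Figure D3:**
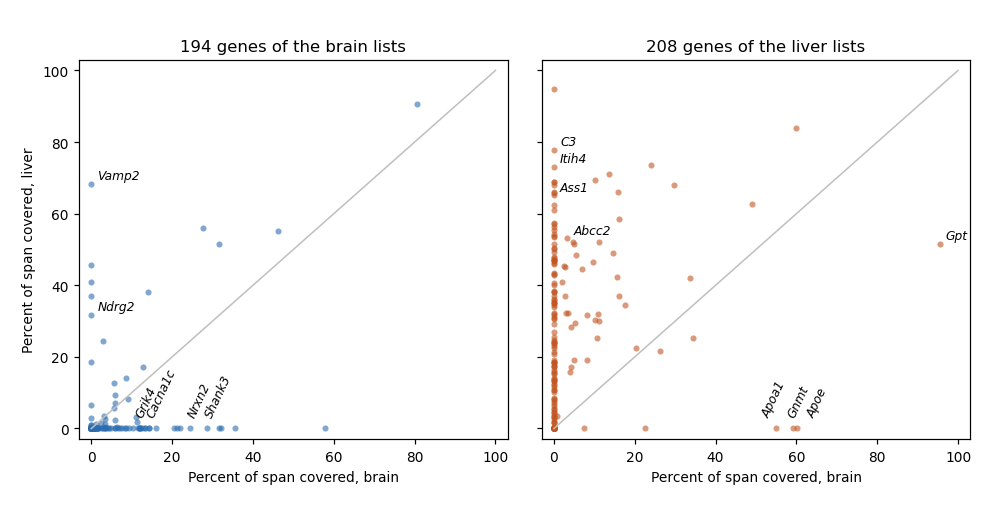
Percent of the span covered in brain (x axis) and in liver (y axis) for the 194 genes of the brain lists (left) and the 208 genes of the liver lists (right), one point per gene, with the line of equal cover. Liver genes stack on the left edge, at 0% in brain and up to 94.9% in liver, whereas brain genes spread low along the bottom edge, with exceptions such as Vamp2 at 68.4% in liver.

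The brain lists did not mirror the liver lists. Over their 194 genes, 32 were covered more in brain, or 16.5% against the background of 10.9%, and 15 in liver, or 7.73% against 21.5%. Retained peaks touched 94 of the genes in brain (48.5%, against 32.8% of all genes) and 38 in liver (19.6%, against 34.4%). Many of the genes are long, so that a number of peaks covered a small share of them. At an equal score of at least 80 in both lists, which keeps 33202 brain and 130408 liver peaks, 27 were covered more in brain and 29 in liver, and with the full lists 75 and 17.

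Voltage-gated channels had 8 of 29 genes covered more in brain and 1 in liver. Cacna1c, the pore of an L-type calcium channel, held 44 brain peaks over 604 kb, a cover of 14.2%, and no liver peak. The T-type calcium channel genes Cacna1h and Cacna1g were covered over 21.9% and 12.1% in brain, and the potassium channel gene Kcna2 over 31.6%, all with 0% in liver. Scn8a, a sodium channel of axons, was covered over 13.4% in brain, with 75% of its promoter, and 0% in liver.

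Glutamate and GABA receptor genes were touched by retained peaks at 13 of 39 in brain (33.3%, near the 32.8% of all genes) and at 1 in liver (2.56%, against 34.4%). Of them 7 were covered more in brain, or 17.9%, and none in liver. Grik4, a kainate receptor subunit, held 22 brain peaks over 426 kb and was covered over 11.5%, and Grik3 held 9 and was covered over 8.46%. Gabrd, the delta subunit of GABA-A receptors, was covered over 13.3% and Gabbr1, of the GABA-B receptor, over 10.3%. Grin1, the subunit that every NMDA receptor needs, was covered over 5.98%. All of these stood at 0% in liver.

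Brain peaks touched 19 of 28 long neuronal adhesion genes (67.9%) and liver peaks 1 (3.57%), beside 32.8% and 34.4% of all genes. Only 3 passed the 5-point rule (10.7%), which is near the background of 10.9%, and none did in liver. Nrxn2, a presynaptic neurexin, was covered over 24.4% by 15 brain peaks. Dscaml1 held 21 brain peaks and Csmd2 held 29, with covers of 12.5% and 9.36%. Ntm and Cdh13, near or above 968 kb in length, held 23 and 20 brain peaks and were covered over 4.07% and 3.60%. None of these genes had a liver peak, and in the full liver list none was covered over more than 0.531%.

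Of 16 postsynaptic scaffold genes, 3 were covered more in brain (18.8%) and 1 in liver (6.25%). Shank3 was covered over 28.7% in brain by 7 peaks, with 0% in liver. Shank2, a close relative of Shank3, was covered over 6.62% in liver by 14 peaks and not in brain. Of 25 presynaptic release genes, 1 was covered more in brain (4%) and 4 in liver (16%), both below the background shares. The members higher in liver included parts of the core of vesicle fusion, with Vamp2 at 68.4% and Stx1a at 37.0% in liver, each with 0% in brain, and Rab3a at 90.7% in liver and 80.6% in brain. Vamp2 and Rab3a are under 5 kb long and each was covered by 1 liver peak. Bsn, a large scaffold of the active zone, was the presynaptic gene covered more in brain, over 11.3% against 1.93%. The presynaptic counts depended on the number of peaks kept. With every nuclear peak, 6 genes were covered more in brain and 4 in liver, beside 20.9% and 30.8% of all genes. Stx1a was then covered over 23.4% in brain and 55.8% in liver, and Vamp2 stayed at 0% in brain.

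Genes of neuronal identity had low mean cover, 1.31% in brain and 0.317% in liver. Peaks touched 35% of them in brain and 25% in liver, beside 32.8% and 34.4% of all genes. Mapt, which encodes tau, was covered over 11.1% in brain and 3.33% in liver, and Ncam1 over 6.30% and 0.532%. These were the 2 genes of 20 past the 5-point rule (10%, near the background of 10.9%). Rbfox3, known as the neuronal marker NeuN, was covered over 3.35% in brain and 1.39% in liver. The list had 12 genes of 20 without a peak in either tissue, beside 54.5% of all genes.

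Oligodendrocyte and myelin genes had 5 of 22 covered more in brain and 2 in liver. Mbp, a main protein of myelin, held 10 brain peaks and was covered over 15.9%, Mobp over 14.3%, and Bcas1 over 8.34%, all with 0% in liver. Nkx6-2, a transcription factor of these cells, was covered over 57.9% by 1 brain peak. Cnp and Trf, a myelin enzyme and the iron carrier that liver secretes, were covered more in liver, over 55.9% against 27.6% and over 14.1% against 8.67%. Astrocyte genes had 3 of 15 covered more in brain and 7 in liver. S100b and Ntsr2 were covered over 35.6% and 32.2% in brain and 0% in liver. The enzymes Aldoc, Aldh1l1 and Glul and the gene Ndrg2 were among the 7 with more in liver. So were Fgfr3, at 55.1% in liver against 46.2%, and Slc4a4, at 12.7% against 5.60%. With the full lists, however, Ndrg2 was covered over 47.8% in brain and 43.3% in liver, whereas Aldoc, Aldh1l1 and Glul remained higher in liver. Some astrocyte enzymes, such as the glutamine synthetase Glul, are also hepatocyte enzymes, but whether this bears on the cover was not tested. Glul was covered over 51.4% in liver and 31.6% in brain.

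Genes that every cell uses were not evenly covered. Of 81 respiratory chain subunits 44 were covered more in liver (54.3%) and 2 in brain, of 39 proteasome subunits 22 (56.4%) and 3, and of 83 cytosolic ribosomal proteins 33 (39.8%) and 2. These shares stand above the background of 21.5% and below the 63.0% of the liver lists. Ndufs8 of complex I was covered over 86.2% in liver and 0% in brain. Psmb4 of the proteasome was covered over 80% and Rpl7 of the ribosome over 72.4% in liver, with 0% in brain. Eef1a1, the translation elongation factor, had no retained peak in either tissue. The higher cover in liver thus extended beyond hepatocyte genes to genes used by all cells, and the mean covers of the 3 lists, 18.7 to 25.7% in liver, lay within the range of the liver lists, 12.4 to 35.2%.

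Receptor clusters had almost no peaks in either tissue, and developmental regulators had few. Of 1113 olfactory receptor genes 1 was touched by a retained peak in each tissue, and of 319 vomeronasal receptor genes none, although many of these have close copies in which few reads map uniquely. Of 81 developmental regulators, of the homeobox, paired box, T-box and GATA families among others, 69 were at 0 in both. By the 5-point rule, 2 of the 81 were covered more in brain (2.47%) and 6 in liver (7.41%). Both shares were below the background, which was 10.9% for brain and 21.5% for liver. Gata4 and Gata6, factors of the endoderm from which liver arises, were among those covered more in liver, with 22.0% and 9.72% against 0% in brain. Tbx3, a factor of hepatoblasts, was covered over 20.8% in liver and 0% in brain. Pax6, a factor of the nervous system, was covered over 4.59% in brain and 0% in liver, short of the 5-point rule. The regulators named here were not the members with the highest cover in either tissue. Whether cover in this list followed tissue lineage was not tested.

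Markers of the other cells in these tissues were covered at few genes, apart from endothelial genes, touched at 53.3% in brain and 46.7% in liver. Of 18 macrophage and microglia genes 14 were at 0 in both, 1 was covered more in brain (5.56%) and 2 in liver (11.1%). The highest cover of a member was 92.0% in brain and 100% in liver. P2ry12, a microglial receptor, stood at 4.65% in brain and 0% in liver, short of the 5-point rule. Endothelial genes were covered more in brain at 4 of 15 (26.7%) and in liver at 3 (20%), with Robo4 at 26.5% in brain and Lyve1, a marker of liver sinusoids, at 11.9% in liver. Stellate and mesenchymal genes had 3 of 13 covered more in brain (23.1%) and none touched in liver, among them Acta2 at 13.8% and Pdgfrb at 8.93%. Of 6 bile duct genes 1 was covered more in each tissue, with Spp1 at 8.95% in brain and the highest cover in liver at 19.2%. The 9 blood cell genes had no peak in either tissue, globin genes included. The part of cell composition in the differences was not tested.

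The genes that write, oxidise and read 5mC were among the well covered. Their means were 12.3% in brain and 17.7% in liver over 18 genes, and 3 were covered more in brain and 7 in liver. Tet3 was covered over 33.7% in brain by 11 peaks and over 44.6% in liver by 14. Tet2 stood at 2.48% and 11.6%, and Tet1 at 7.15% in brain and 0% in liver.

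Among the methyltransferases, Dnmt3a was covered over 47.4% in liver by 26 peaks and over 15.1% in brain by 9, yet its promoter was covered over 47.1% in brain and not in liver. Dnmt3b stood at 6.13% in brain and 10.8% in liver, with 58.5% of its promoter covered in liver, and Dnmt1 at 10.3% and 5.89%. Dnmt3l, a catalytically inactive relative of Dnmt3a, had no peak. Glycosylases that remove oxidised or damaged bases had retained peaks in 1 tissue only. Smug1 was covered over 64.5% in brain and 0% in liver, Tdg over 12.5% and 0%, and Neil1 over 0% and 61.0%. With the full lists, however, Tdg was covered over 20.8% in brain and 23.7% in liver, and Neil1 over 33.8% and 77.3%. The methyl-CpG binding proteins were covered in both tissues, Mbd1 over 13% in brain and 54.7% in liver, Mbd2 over 21.3% and 18.9%, and Mbd3 over 27.3% and 44.6%, whereas Mbd4 had none. Uhrf1 stood at 0% and 8.67% and Uhrf2 at 8.43% and 10.4%. Ogt, on X, had no retained peak.

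The X chromosome was nearly empty in both lists, with 10 retained peaks in brain and 15 in liver on 6.28% of the genome. Only 2 of its 932 protein-coding genes were touched in brain and 4 in liver. X-linked members of the lists, 8 in the brain lists and 2 in the liver lists, could therefore show no difference. Without them the brain lists had means of 4.57% in brain and 3.57% in liver.

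**Figure D4:**
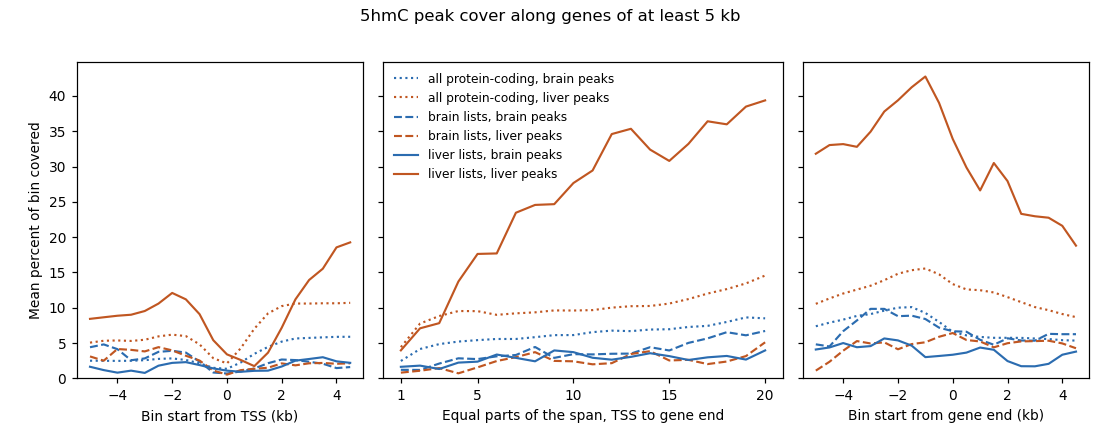
Mean percent of each bin covered by brain (blue) and liver (orange) peaks in genes of at least 5 kb, for all protein-coding genes (dotted), the brain lists (dashed) and the liver lists (solid), in 500 bp bins around the transcription start site, in 20 equal parts of the span, and in 500 bp bins around the gene end. In liver the liver lists climb from 3.97% in the first part of the span to 39.4% in the last, and the other curves stay at or below 15.6%.

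Along genes of at least 5 kb, cover was lowest at the transcription start site and grew towards the gene end in both tissues. Over all 16526 such genes, the 500 bp that follow the start were covered over 1.36% in brain and 2.12% in liver on average. The last of 20 equal parts of the span was covered over 8.51% in brain and 14.6% in liver. The gradient was steepest for liver genes in liver. The 182 genes of the liver lists were covered over 3.97% in the first part, 27.7% in the 10th and 39.4% in the last.

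In the same genes, brain cover stayed between 1.33% and 3.96% in all 20 parts. In liver their cover was highest, at 42.7%, in the 500 bp bin that starts 1 kb before the gene end, and it was still 18.8% in the last bin, beyond 4.5 kb past it. Cover upstream of these genes had a lesser maximum of 12.1% at the bin 2 kb before the start and fell to 1.74% in the bin 1 kb after it. The 187 genes of the brain lists had a shallow gradient in brain, from 1.22% in the first part to 6.72% in the last. Their liver values were lower, at 0.816% in the first part and 5.11% in the last.

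**Figure D5:**
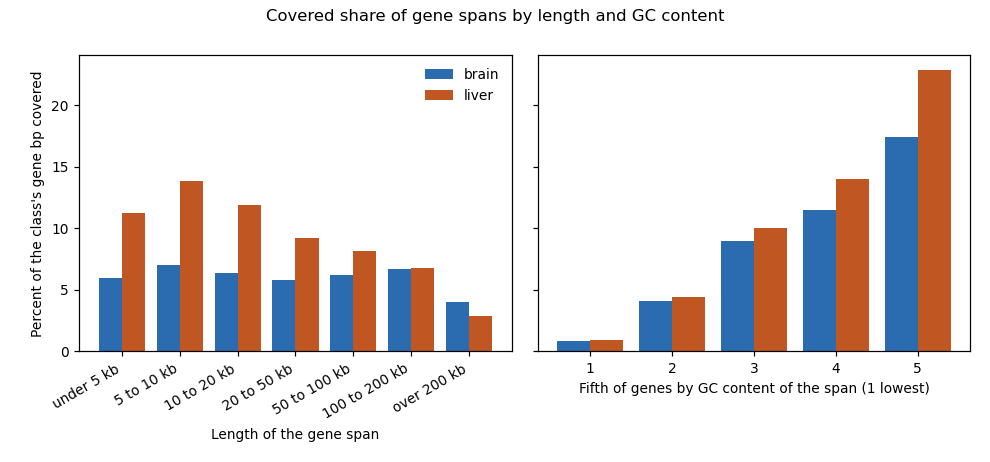
Percent of gene bp covered by retained peaks of brain (blue) and liver (orange), by length of the gene span (left) and by class of genes in GC content, each with an equal number of genes (right). Liver bars exceed brain bars in genes under 200 kb, though barely from 100 to 200 kb, and fall below them over 200 kb (2.82% against 4.02%), and both tissues rise with GC content.

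The balance between the tissues moved towards brain in long genes. In spans under 5 kb, 5.97% of bp were covered in brain and 11.2% in liver, a ratio of 0.531, and the ratio was 0.507 in spans of 5 to 10 kb. From there it rose through 0.626 in spans of 20 to 50 kb and 0.988 in spans of 100 to 200 kb to 1.43 over 200 kb. Liver cover decreased with length, from 13.9% of bp in spans of 5 to 10 kb to 2.82% over 200 kb, while brain cover lay between 4.02% and 7.03% in every class. The median span was 26.9 kb among genes covered more in brain and 17.4 kb among those covered more in liver, against 15.4 kb for all. Long genes include many of the neuronal lists, and length and function were not separated here.

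GC content moved with cover in both tissues. From the class of genes with the lowest GC to that with the highest, of 5 equal classes, covered bp rose from 0.817% to 17.4% in brain and from 0.929% to 22.9% in liver. Genes covered more in either tissue had near-equal median GC, 48.5% for brain and 48.7% for liver, against 45.6% for all genes. The liver lists were covered more in liver within every class, with means of 5.17% against 0.101% in the lowest and of 32% against 14.1% in the highest. In the brain lists, 73 of 194 genes fell in the lowest class, where their means were 0.275% in brain and 0.0688% in liver. In the middle class they were 6.16% and 0.981%, and in the highest class, with 43 genes, 9.56% and 9.87%, where liver was the higher.

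Short letter patterns known from factors of these tissues hardly separated the peaks. They were looked for on both strands of the middle 300 bp of each peak. The hepatocyte factor pattern CAAAGTCCA, read by HNF4, was in 0.492% of peaks found in liver alone (exact interval 0.403 to 0.594%) and in 0.366% of those found in brain alone (0.290 to 0.457%), against 0.340% of genome windows. TGTTTAC or TGTTTGC, the FOXA pattern, was in 10.1% and 10.2%. The E-box letters CAGATG or CAGCTG, used by neuronal bHLH factors among others, were in 36.3% of liver and 37.8% of brain peaks of 1 tissue, against 30.0% of genome windows.

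Other patterns differed little in share between the tissues. TATTTTTA, the MEF2 pattern, was in 3.60% of peaks found in liver alone (3.36 to 3.86%) and 2.99% of those found in brain alone (2.76 to 3.22%). Both were under the 5.95% of genome windows. The CTCF core CNAGGNGGC was in 3.96% and 4.23%, above the 2.30% of genome windows. TTGGCA, the half-site of NFI factors, was in 16.3% of each, ACAAAG, shared by SOX factors, in 23.8% and 24.2%, TAGGTCA, read by ROR factors, in 3.21% and 2.92%, and TTGCGCAA or TTGCGTAA, read by C/EBP factors, in 0.167% and 0.122%. Genome windows are richer in A and T than peaks, and no pattern's share, above or below the genome, was adjusted for this. Some patterns overlap in letters, and a match marks the letters only.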

How the data were processed

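The authors aligned each GLIB-Seq library to mm9 (Bowtie 0.12.7, at most 2 mismatches, reads with a single placement), removed duplicates and ran MACS 1.4.1 on it. The control and threshold of the peak calls are not given in the sources used here. The deposited lists hold, per the file contents, a position and a score for each peak, and the authors' score was used only to rank peaks. The unit of depth, reads, is not in these lists, so intervals on shares (exact, Clopper-Pearson, 95%) cover counting error only.

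Mitochondrial peaks (1 in each tissue) were left out. The 33000 peaks with the highest scores were kept from each list, with ties by position, since the full lists reach down to scores of 30 in brain and 80 in liver. Peaks were merged and their bp counted within spans and TSS ± 1 kb windows of GENCODE M1 genes (assembly NCBIM37, the same sequence as mm9) with Python 3.11.15, pandas 2.3.3, numpy 2.4.6 and scipy 1.17.1. The counting was tested on simulated peaks. Peaks shared at least 1 bp when called overlapping.

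Named genes are the 12 spans of at least 10 kb and the 6 promoters with the largest differences in each direction, up to 4 members of each of 27 lists by size of the difference, members of the 5mC and 5hmC list, and Alb and Eef1a1. Some items that this rule names are not reported here. Other list members in the text were chosen after their values were seen. The members and lists were chosen with earlier results of these data known. Alternatives were other choices of peaks, thresholds, windows, overlaps and genes.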

Additional observations from a re-analysis of the deposited data

How the results depend on the processing

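Keeping all nuclear peaks gave 4677 genes covered more in brain, 1338 promoters more in brain and 2719 in liver, overlaps of 39.3% of brain and 46.4% of liver peaks, a promoter ratio of 0.671 and the reversed genic ratio of 1.09. A score of at least 80 in both lists, which keeps 33202 brain and 130408 liver peaks, gave 1319 genes more in brain and 9614 in liver, 3625 promoters more in liver, overlaps of 58.5% and 16.9%, ratios of 0.42 in spans and 0.198 in promoters, and 23 of 27 lists with a higher mean in liver in place of 15. It also turned the mean difference (brain minus liver, in percentage points) of the postsynaptic list to -0.87, neuronal identity to -0.51, myelin to -1.98, macrophage to -0.56, endothelial to -8.0 and olfactory receptors to -0.20. The top 16000 peaks gave 224 and 555 promoters and overlaps of 32.1% and 31.1%. Peaks up to 40 Mb gave 2967 genes more in liver, 247 and 417 promoters, overlaps of 28.1% and 35.8%, and ratios of 0.976 and 0.613. Both turned the macrophage difference to -0.97.

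A difference of 10 points left 1588 genes more in brain. A difference of 50 points left 192 and 429 promoters. Windows of ± 500 bp gave 700 promoters more in liver, and ± 2 kb gave 642 in brain and 1841 in liver. When 50% of each peak in a pair had to be shared, the overlap fell to 23.0% of the peaks in each tissue. With medians in place of means, 9 lists were higher in liver. The cause of these shifts was not tested beyond the numbers of peaks kept. No paired analysis was possible because each tissue has 1 library and no test was made.

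Of the 2435 genes covered more in brain, 1311 remained so at an equal score and 506 turned to liver, a setting that adds liver peaks and hardly any brain peaks. Of the 4803 genes covered more in liver, 4321 remained so with all peaks, 3339 with the top 16000 and 2817 with 40 Mb, and of the genes covered more in brain 2027, 1483 and 1543. Every liver list kept its higher mean in liver under each choice of peaks. Depth is unknown, so a gene without a peak is not shown to lack 5hmC.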
